A study of Bos taurus with 48 samples.

Results

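The beta-adrenergic and cyclic AMP (cAMP) signalling genes followed here in bovine leukocytes were ADRB1 (ENSBTAG00000001242), ADRB3 (ENSBTAG00000017981), GLP1R (ENSBTAG00000018224), PDE4C (ENSBTAG00000010652) and ADCY8 (ENSBTAG00000014600). They were chosen by name, 5 of the 25669 genes of the count table. All 5 stand in gene lists that the study drew from these same samples, so their direction in the comparisons concerned is not independent evidence. Those comparisons are weaned against control calves on d 2 for ADRB1, ADRB3, GLP1R and PDE4C, and on d 1 for ADRB3, and the change from d 0 in weaned calves for ADRB3 on d 2 and ADCY8 on d 7, and in control calves for GLP1R on d 2. Summed counts and interactions that use libraries of these comparisons are not independent of that choice either.

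RNA of total leukocytes from 12 single-suckled bull calves was sequenced, 6 abruptly separated from the dam at housing (weaned) and 6 housed together with the dam (control). Each calf gave a library on d 0, taken before housing, and on d 1, 2 and 7, which makes 8 groups of 6 and 48 libraries. Control calves were moved indoors too, so within a treatment the change from d 0 holds housing and time together, and these cannot be told apart. Weaned calves were penned with other weaned calves, which the study describes as a social reorganisation. Between treatments, separation from the dam and this regrouping cannot be told apart. Calves of both treatments were housed in shared pens, each pen holding 1 treatment, so pen and treatment cannot be fully told apart either. The sample labels name no pens, and the tests took calves as independent. All calves had been vaccinated and carry the breed label Continental.

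Adrenaline and noradrenaline bind beta-adrenergic receptors, which act through the stimulatory G protein Gs on adenylate cyclases. These make cAMP from ATP, and cAMP activates protein kinase A, while phosphodiesterases such as those of the PDE4 family break it down again. In leukocytes this route is known to damp many immune responses.

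The libraries held 1662995 to 4256011 counts each (median 3600161). Levels are given as CPM, the count relative to the library total after scaling by TMM, and 3 counts, taken as the least that can be told from none, were worth 0.686 to 2.08 CPM. No gene lengths were used, so CPM are compared within a gene and not between genes. The 120 pairs of libraries of the same group differed by 2.79 to 57.9 times the counting noise. Over 200 genes steady within a calf on the other days, 44 of the 48 libraries resembled their own calf most. Of the 4 others, the d 7 libraries labelled 1758 and 1770, both from weaned calves, matched one another's calf, and the libraries of weaned calf 1758 on d 0 and control calf 1755 on d 2 resembled no calf well. Over all 10258 genes of at least 5 CPM only 36 libraries matched their calf best, so the check depends on its genes. Changes within calves, sums over the days of a calf and the variation between calves depend on which of the crossed pair is which, and comparisons of treatments on 1 day do not. Markers of neutrophils, T cells, B cells and monocytes could not be identified in the table (0 of 8, 8, 6 and 5), so neither the tissue label nor cell composition was checked. In such bulk samples fewer cells of a type and less RNA per cell cannot be told apart. The study's blood counts gave more neutrophils and fewer lymphocytes, as percentages, in weaned than in control calves on d 1. Weaned calves also differed in this way from their own baseline on d 1, and no difference between treatments was marked on d 2. Whether this entered the values below was not tested.

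Apart from ADRB3, the genes had few counts in each library. ADRB3 had 2813 counts over the 48 libraries and 18 to 319 in each. ADRB1 had 612 counts (2 to 28 in a library), PDE4C 735 (3 to 40) and ADCY8 663 (2 to 35). GLP1R had 149 counts, was at 0 in 8 libraries and passed 3 counts in only 14, so most of its values lie at the limit of the depth.

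**Figure D1:**
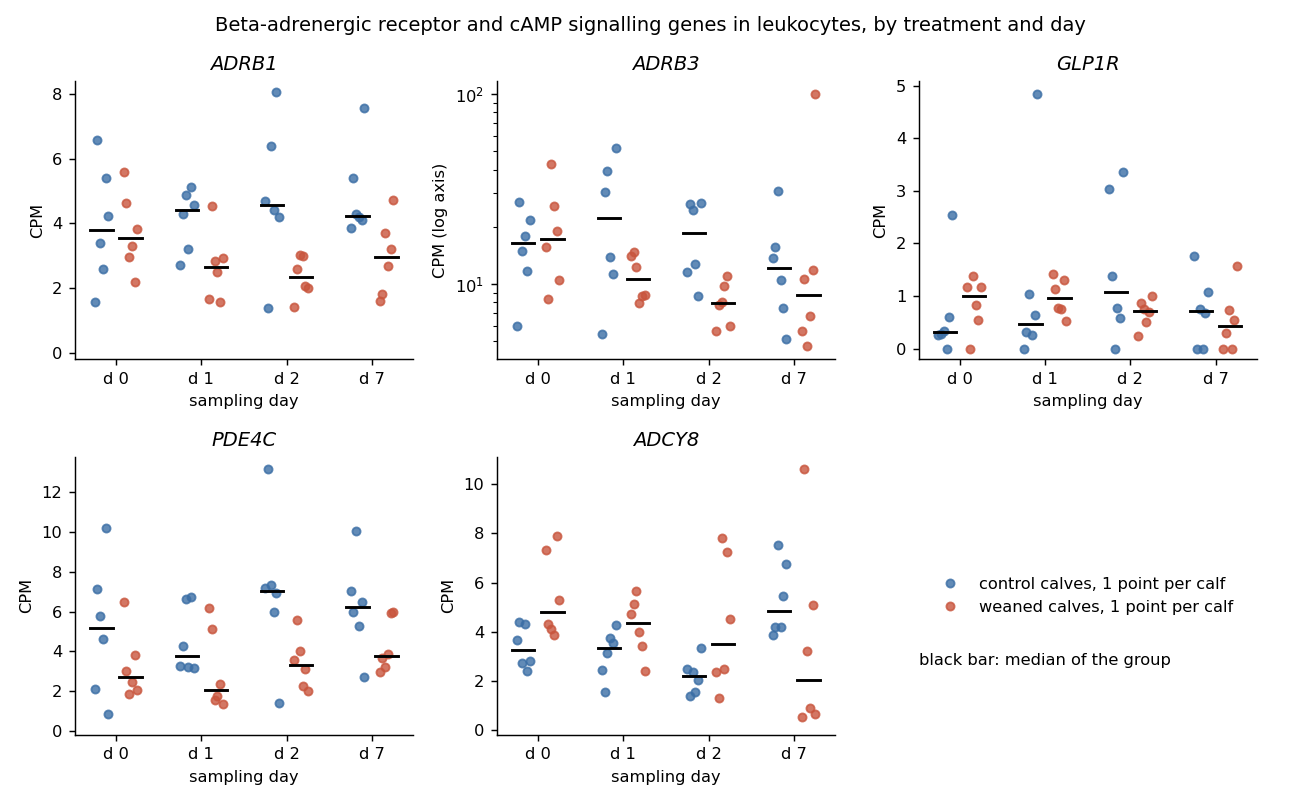
Level of each gene (CPM, y axis, on a log axis for ADRB3) by sampling day (x axis) in control (blue) and weaned (red) calves, 1 point per calf and a black bar at the median. Weaned calves lie low for ADRB1 and ADRB3 on d 1 and d 2, ADCY8 spreads from 0.536 to 10.6 CPM in weaned calves on d 7, and 1 weaned calf stands at 100.2 CPM for ADRB3 on d 7.

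The first question was whether weaned calves differed from control calves on the same day. None of the 5 genes was called (edgeR quasi-likelihood F-test, Benjamini-Hochberg adjusted p under 0.05 and at least 2-fold) on any of the 4 days, and the share of all genes called was 0% on each. DESeq2 called none of the 5 either, and 28 of all genes on d 7 and none on the other days. At an unadjusted p under 0.05, 3 of the 5 genes were lower (ADRB1, ADRB3 and PDE4C) and 1 was higher (ADCY8) in weaned calves on d 2, where 0.903% of the 13949 genes tested were lower and 2.47% higher. Their median log2 change on d 2 was −1.09, beside 0.03 over all genes. The study had listed ADRB1, ADRB3, GLP1R and PDE4C through this same comparison. The shares and the median of d 2 are therefore not independent of how the genes were chosen. On the other days 1 gene each passed that limit, ADCY8 higher on d 0 (2.1% of all genes), ADRB3 lower on d 1 (1.98%) and ADRB1 lower on d 7 (7.86%).

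ADRB3, the beta-3 adrenergic receptor best known from adipose tissue, had the smallest p of the 5 genes on d 2. Control calves had 8.64, 18.6 and 26.8 CPM (lowest, median and highest) and weaned calves 5.66, 7.90 and 11.1 CPM. The groups overlapped, with 4 of 6 weaned calves below the lowest control calf and 5 of 6 control calves above the highest weaned calf. The log2 change was −1.18 (SE 0.31, unadjusted p = 0.0017, adjusted p = 0.95), rank 7 by p among the 13949 genes, and an exact two-sided permutation of the calf labels gave p = 0.00866. Weaned calves were lower on 4 of the 4 flowcells that held both treatments on d 2, and the change with flowcell as a block was −1.23. Each of these flowcells held 1 weaned and 1 control calf of that day, from the same libraries as the test. Flowcells were assigned by reading the sampling numbers in the study's lane assignments as d 0, 1, 2 and 7 in order, which was not checked. With edgeR's exact test and a common dispersion, ADRB3 was the 1 gene of the 5 called on d 2, at an adjusted p of 0.0123, and under no other alternative was it called.

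On d 1 the spread of ADRB3 in control calves was wider. They had 5.44, 22.2 and 52.2 CPM, and weaned calves 7.97, 10.6 and 14.8 CPM. The weaned calves lay within the control range, below the control median in 6 of 6. The log2 change was −1.21 (SE 0.44, adjusted p = 0.96) and the exact permutation p was 0.139. Before housing, on d 0, the median was 16.4 CPM in control and 17.3 CPM in weaned calves, with a log2 change of 0.32 (SE 0.39).

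On d 7 a single calf set the ADRB3 value. Weaned calves had 4.70, 8.72 and 100.2 CPM and control calves 5.14, 12.1 and 30.9 CPM. Weaned calf 1809 alone held 319 of the 461 ADRB3 counts of its group (69.2%), and the next weaned calf was at 11.8 CPM. The log2 change of 0.74 (SE 0.68, adjusted p = 0.47) became −0.82 (adjusted p = 0.13) without that calf. Leaving it out also moved the count of all genes called on d 7 from 0 to 1136, with none of the 5 among them. With flowcell as a block it was −0.85.

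ADRB1, the beta-1 adrenergic receptor that is best known from the heart, lay lower in weaned calves on each day after housing. On d 0 control calves had 1.57, 3.81 and 6.57 CPM and weaned calves 2.17, 3.56 and 5.58 CPM, and the log2 change was −0.08 (SE 0.35). On d 2 control calves had 1.39, 4.55 and 8.07 CPM and weaned calves 1.42, 2.33 and 3.02 CPM. The groups overlapped only through control calf 1759, whose library was the shallowest and held 2 ADRB1 counts, and the other 5 control calves were above every weaned calf.

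The log2 change of ADRB1 on d 2 was −1.09 (SE 0.36, unadjusted p = 0.00776, adjusted p = 0.95, exact permutation p = 0.0346). With flowcell as a block it was −0.62. On d 1 the change was −0.64 (SE 0.32, adjusted p = 0.96, exact permutation p = 0.0303). On d 7 control calves had 3.87, 4.24 and 7.57 CPM and weaned calves 1.61, 2.95 and 4.71 CPM, with 5 of 6 weaned calves below the lowest control calf. The log2 change on d 7 was −0.72 (SE 0.34, adjusted p = 0.19, exact permutation p = 0.0195), and −0.90 (adjusted p = 0.0599) without calf 1809. Within flowcells that held both treatments, weaned calves were lower in 4 of 4 on d 1, 3 of 4 on d 2 and 4 of 4 on d 7, and in 3 of 5 on d 0. Each such flowcell held 1 weaned and 1 control calf of the day.

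PDE4C, a cAMP-specific phosphodiesterase, was below the control median in every weaned calf on d 2. Control calves had 1.40, 7.04 and 13.2 CPM and weaned calves 2.00, 3.32 and 5.60 CPM. The groups overlapped through control calf 1803, which was the lowest control calf on each day. The log2 change between treatments was −1.0 (SE 0.41, unadjusted p = 0.0265, adjusted p = 0.95, exact permutation p = 0.0844). A difference of the same sign stood there before housing, at −0.63 (SE 0.48) on d 0, and the changes on d 1 and d 7 were −0.58 (SE 0.42) and −0.56 (SE 0.34).

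GLP1R, the receptor for glucagon-like peptide-1, which also couples to Gs, gave no value that its depth could support. On d 2 control calves had 0, 1.08 and 3.35 CPM and weaned calves 0.236, 0.723 and 0.999 CPM, from 30 and 14 counts. The log2 change of −1.15 had an SE of 0.71 (adjusted p = 0.95, exact permutation p = 0.258). In control calves 2 libraries were above 3 counts on d 2, those of calves 1755 and 1803.

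ADCY8, an adenylate cyclase stimulated by calcium and calmodulin, differed in sign between days. It was higher in weaned calves already on d 0, where control calves had 2.40, 3.24 and 4.38 CPM and weaned calves 3.85, 4.80 and 7.88 CPM. The groups overlapped, and each weaned calf was above the control median. The log2 change on d 0 was 0.69 (SE 0.28, unadjusted p = 0.0228, adjusted p = 0.62, exact permutation p = 0.026).

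The change of ADCY8 was 0.41 (SE 0.31) on d 1 and 0.93 (SE 0.43, adjusted p = 0.95, exact permutation p = 0.132) on d 2. On d 7 control calves had 3.87, 4.83 and 7.55 CPM, and weaned calves 0.536, 2.05 and 10.6 CPM. The weaned calves lay on both sides of the control range on d 7, with calves 1758, 1770 and 1809 at 2 or 3 counts each, at the limit of the depth, and calf 1762 at 35 counts. The log2 change was −0.62 (SE 0.56, adjusted p = 0.46), and −1.35 without calf 1762.

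**Figure D2:**
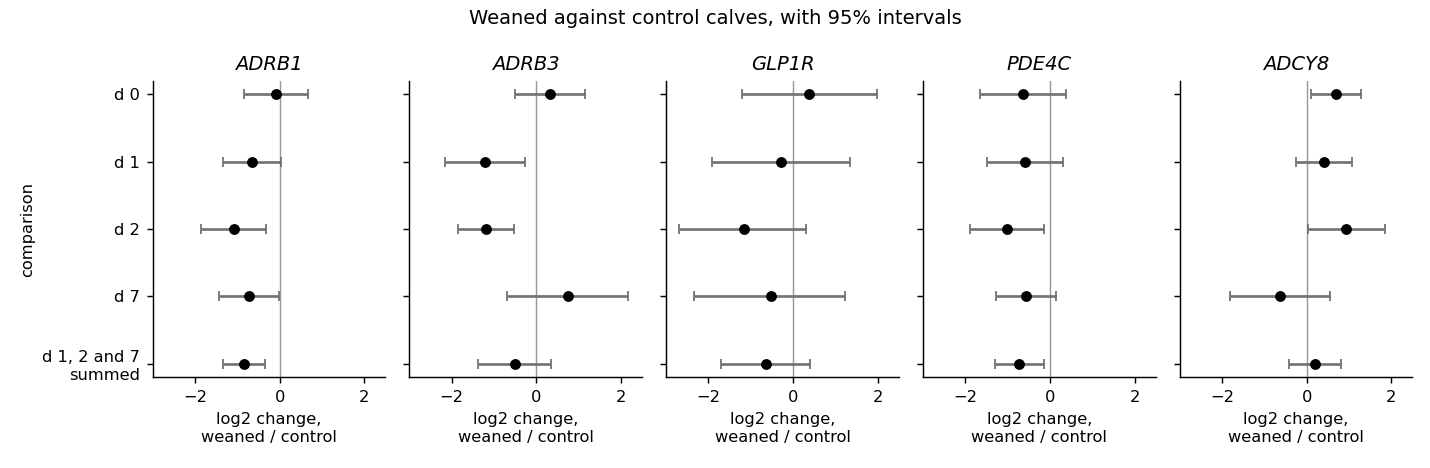
Log2 change between weaned and control calves (x axis, edgeR estimate with its 95% interval) on each day and for the counts of d 1, 2 and 7 summed per calf (y axis), for each gene. Values left of 0 are lower in weaned calves, as for ADRB1 (−1.09) and ADRB3 (−1.18) on d 2, and the interval of ADCY8 lies above 0 on d 0 and d 2.

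To gain depth, the counts of d 1, 2 and 7 were summed for each calf, which leaves 6 weaned against 6 control calves. For ADRB1, control calves had 4.70 CPM ± 0.94 (SD, n = 6, range 3.75 to 5.89, 277 counts) and weaned calves 2.66 ± 0.63 (SD, n = 6, range 1.56 to 3.19, 174 counts). Every weaned calf was below every control calf for ADRB1, as in 0.243% of the 15254 genes tested. The sum holds the d 2 libraries through which the study listed ADRB1, so this separation is not independent of that choice. The log2 change of ADRB1 was −0.84 (SE 0.24, unadjusted p = 0.00249, adjusted p = 0.44), and it stayed between −0.91 and −0.71 when each calf was left out in turn, with −0.71 without calf 1758 and −0.85 without calf 1770. The exact permutation p of 0.00216 is the smallest that 6 against 6 calves can give.

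None of the 5 genes was called in the summed counts (0% of all genes called by edgeR), and 2 of 5, ADRB1 and PDE4C, were lower at an unadjusted p under 0.05, beside 5.76% of all genes. The study listed both through d 2 libraries that the sum holds. PDE4C had 5.75 CPM ± 1.99 in control and 3.54 ± 0.86 in weaned calves (SD, n = 6 each). Its log2 change was −0.72 (SE 0.27, adjusted p = 0.44, exact permutation p = 0.0498), and 1 control calf, 1803, lay below all weaned calves at 2.41 CPM. For ADRB3, GLP1R and ADCY8 the changes were −0.51 (SE 0.41), −0.64 (SE 0.49) and 0.19 (SE 0.29). The ADRB3 value was −1.05 without calf 1809, and that of GLP1R was −0.0042 without control calf 1803.

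**Figure D3:**
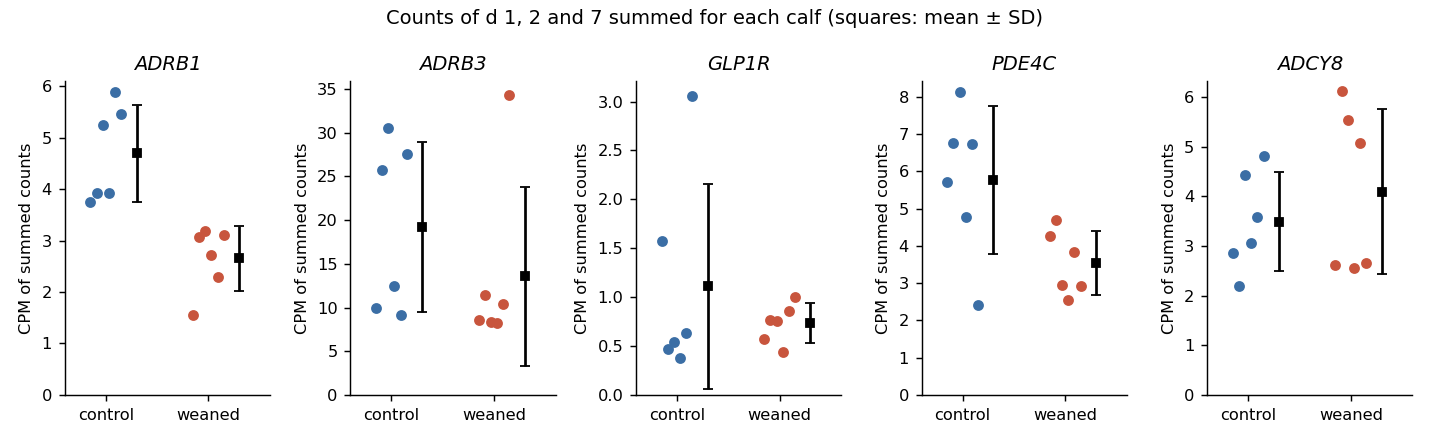
CPM of the counts of d 1, 2 and 7 summed for each calf (y axis), 1 point per calf, in control (blue) and weaned (red) calves (x axis), with mean ± SD as black squares. For ADRB1 the control calves (3.75 to 5.89 CPM) lie above the weaned calves (1.56 to 3.19 CPM), and for the other genes the groups overlap.

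The next question was how each treatment changed from its own level on d 0. Unless stated, the edgeR fits here had no block for calf and took the libraries of a calf as independent. The permutation of signs was paired by calf. In weaned calves ADRB3 was at 8.29, 17.3 and 42.5 CPM on d 0 and at 5.66, 7.90 and 11.1 CPM on d 2, with overlapping ranges. It was lower on d 2 in 6 of 6 calves, as were 1.52% of the 13984 genes tested. On the log2 scale the change was −1.35 (SE 0.36, unadjusted p = 0.00172, adjusted p = 0.94), and the exact permutation of signs gave p = 0.0312, the smallest it can give with 6 calves.

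Without calf 1769, which had the highest d 0 level, the ADRB3 change on d 2 was −0.98, and without calf 1758 it was −1.34. On d 1 the ADRB3 change was −0.91 (SE 0.34, unadjusted p = 0.0174, adjusted p = 0.42), with 5 of 6 calves lower. ADRB1 was lower on d 1 in 6 of 6 weaned calves, as were 2.62% of all genes, and its log2 change there was −0.51 (SE 0.33), with an adjusted p of 0.44 and an exact permutation p of 0.0312.

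On d 2 the ADRB1 change in weaned calves was −0.68 (SE 0.32, adjusted p = 0.94), with 5 of 6 calves lower, and −0.40 without calf 1758. None of the 5 genes was called by edgeR on any day in weaned calves, where 0% of all genes were called. At an unadjusted p under 0.05, ADRB3 was lower on d 1 (4.34% of all genes) and ADRB1 and ADRB3 on d 2 (0.722%). The study listed ADRB3 in this d 2 comparison, so its place there is not independent of that choice.

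ADCY8 was spread widely in weaned calves at the end. It was lower on d 7 than on d 0 in 5 of 6 calves, with a log2 change of −0.65 (SE 0.58, adjusted p = 0.92) without calf as a block and −1.04 with it, and the exact permutation p was 0.156. With the block and without calves 1758 and 1770, whose d 7 libraries appear crossed, the change was −0.29.

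None of the 5 genes was called in control calves on any day, and ADCY8 on d 7 was the 1 with an unadjusted p under 0.05. ADCY8 had 3.38 CPM ± 0.86 on d 0 and 5.34 ± 1.53 on d 7 (SD, n = 6 each), higher in 4 of 6 calves. The log2 change was 0.70 (SE 0.30, unadjusted p = 0.0296, adjusted p = 0.0916), below 2-fold, in the 1 comparison of the 14 in which edgeR called any gene. There 3.72% of all genes were called and 18.3% were higher at an unadjusted p under 0.05. On d 1 and d 2 0% of all genes were called in control calves. ADRB3 changed in control calves by 0.62 (SE 0.48), 0.14 (SE 0.34) and −0.22 (SE 0.39) on d 1, 2 and 7. GLP1R changed by 1.14 (SE 0.83, adjusted p = 0.62) on d 2.

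**Figure D4:**
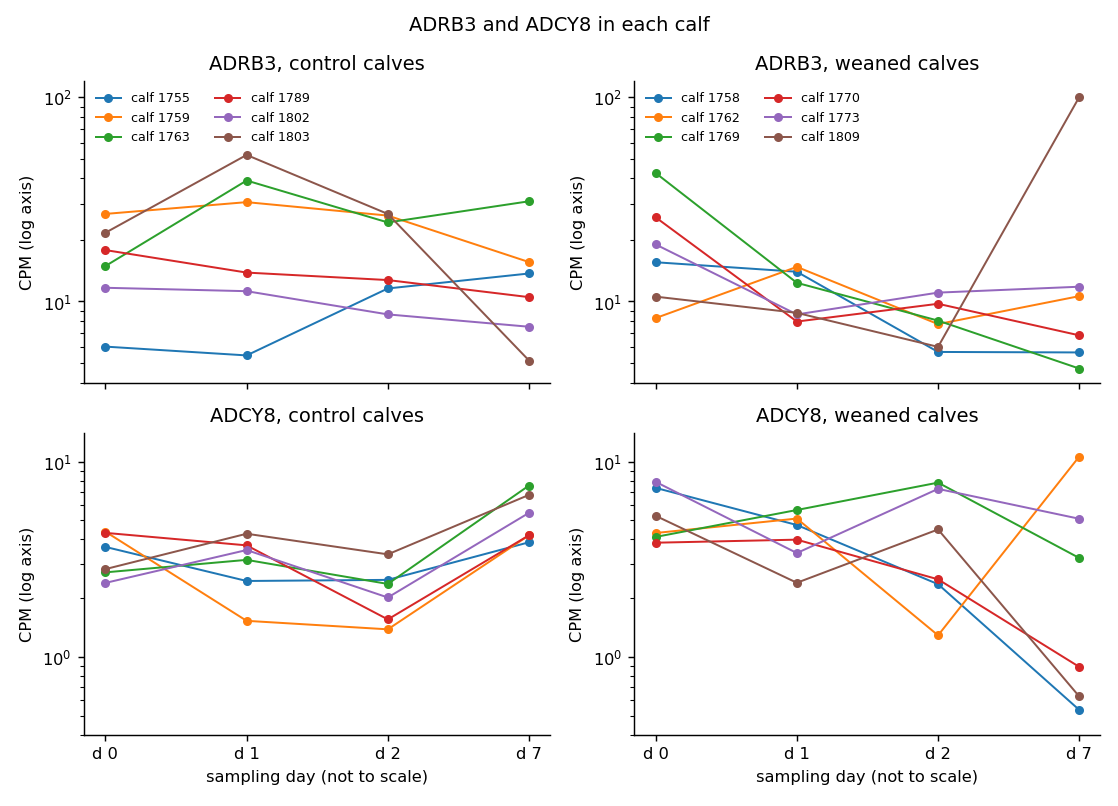
ADRB3 (top) and ADCY8 (bottom) in each control (left) and weaned (right) calf, as CPM on a log axis (y axis) over the 4 sampling days (x axis, not to scale), 1 line per calf as labelled. ADRB3 was lower on d 2 than on d 0 in all 6 weaned calves and in 3 of 6 control calves, and calf 1809 stood at 100.2 CPM on d 7. ADCY8 was lower on d 7 than on d 0 in 5 of 6 weaned and 2 of 6 control calves.

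Whether the 2 treatments changed differently was tested directly as a treatment by day interaction over 24 libraries, with calf as a block. None of the 5 genes was called, and 0% of all genes were called by edgeR in each of the 3 interactions. DESeq2 called 4, 0 and 950 genes on d 1, 2 and 7, none of them among the 5. For ADRB3 the difference of the changes on d 2 was −1.37 (SE 0.37, unadjusted p = 0.00175, adjusted p = 0.51, exact permutation p = 0.0108), with 6 of 6 weaned and 3 of 6 control calves lower than on d 0. It ranged from −1.58 to −1.13 when each calf was left out. On d 1 it was −1.19 (SE 0.43, adjusted p = 0.20, exact permutation p = 0.0606).

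At an unadjusted p under 0.05, ADRB3 was the 1 gene of the 5 with a lower interaction on d 1 and on d 2, beside 8.62% and 2.63% of all genes. On d 7 it was ADCY8, beside 14.8%. These interactions share libraries with the comparisons through which the study listed ADRB3 and ADCY8. The interaction of ADCY8 on d 7 was −1.68 (SE 0.66, adjusted p = 0.0949, exact permutation p = 0.0281). Without calves 1758 and 1770 it was −1.01 (unadjusted p = 0.0887 by edgeR). That of ADRB1 on d 2 was −1.04 (SE 0.53, adjusted p = 0.51), and −1.39 without the d 0 and d 2 libraries of control calf 1759.

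The genes differed in how far calves kept their own level. After group means were removed, the share of variance between calves (intraclass correlation of log2 CPM + 1) was 0.452 for PDE4C, above the median of 0.238 over genes of at least 3 CPM. GLP1R gave 0.333, but it is not among those genes. Its median was 0.716 CPM, with 8 libraries at 0, so its value cannot be set beside that median. For ADRB1, ADRB3 and ADCY8 it was 0.0296, 0.0728 and 0.0149. Control calf 1803 had the highest GLP1R level of its group on d 0, 1 and 2, with 9, 17 and 12 counts.

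Across the 48 libraries, which share calves and days, ADRB1 and ADRB3 had a Spearman rho of 0.352, and 0.0949 after group means were removed. The values for ADRB1 and PDE4C were 0.431 and 0.204. Of the genes of at least 3 CPM, those that ordered the libraries most like ADRB1, ADRB3, GLP1R and PDE4C had a rho of 0.671, 0.821, 0.616 and 0.872 and carry no symbol in the sources used here.

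Of the other pathway genes looked for, 10 could be identified, all through lists the study drew from these samples. A gene could be named only if the study had listed it as changed in some comparison. The shares and medians of these genes beside all genes are therefore not independent of that choice. On d 2 none of the 9 tested was called between treatments, 1 was higher at an unadjusted p under 0.05, beside 2.47% of all genes, and their median log2 change was 0.59, beside 0.03 over all genes. The smallest p were those of FOSB, a cAMP-responsive transcription factor gene, at 0.72 (SE 0.29, adjusted p = 0.95), and of GNAI1, an inhibitory G protein subunit, at 0.59 (SE 0.46). In weaned calves on d 2, FOSB and its relative FOS changed by 0.89 (SE 0.20) and 0.68 (SE 0.27), both with an adjusted p of 0.94. In control calves on d 7, where 3.72% of all genes were called and 62 of 13829 were called higher, 2 of 9 were called higher, FOSB by 1.70 (SE 0.28, adjusted p = 0.0221) and FOS by 1.12 (SE 0.37, adjusted p = 0.0456). Without calf 1755, 1759 or 1763, 0 genes were called in that comparison. PRKACB, a catalytic subunit of protein kinase A, had the smallest p there after FOSB, with a change of −0.96 (SE 0.24, adjusted p = 0.0242), just under 2-fold. Between treatments on d 7, FOSB was at −1.03 (SE 0.31, adjusted p = 0.16) and PRKACB at 0.87 (SE 0.32, adjusted p = 0.16).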

How the data were processed

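Total leukocytes of 12 calves were sequenced on 4 days (48 libraries on 8 flowcells). The authors aligned short single-end reads to Btau4.0 with Bowtie 0.12.7, allowing no mismatch and suppressing reads with several alignments, kept 1 read per position, and counted reads per Ensembl gene with HTSeq 0.4.6p2. The deposited values are raw counts without normalisation. Whether counting used the strand is not given in the sources used here. The table has no per-sample columns beside these.

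Counts were fitted with edgeR 4.0.16 in R 4.3.3 (TMM, genes with at least 10 counts in the libraries fitted, quasi-likelihood F-test, Benjamini-Hochberg adjustment over all genes tested, called at an adjusted p under 0.05 and at least 2-fold). Weaned and control calves were compared on each day and with d 1, 2 and 7 summed per calf, each later day with d 0 within a treatment, and the changes between treatments as an interaction with calf as a block. For each of the 5 genes, exact two-sided permutations were run on mean log2(CPM + 1), over 924 arrangements of calf labels (smallest p 0.00216) or 64 of signs (smallest p 0.0312). Levels and permutations used TMM factors over all 48 libraries. The same numbers mark the same calves, and libraries of a calf on d 0 and later correlated by 0.214 to 0.503 on average. Alternatives were the Wald test of DESeq2 1.42.0, size factors by RLE, other filters, edgeR's exact tests, all 48 libraries in 1 fit, flowcell or calf as a block, calves 1758 and 1770 left out, and each calf left out in turn. Of the procedures, only the edgeR F-test was run on simulated counts, with changes larger than the threshold and the same dispersion for every gene. The permutations, the check of calf labels and the intraclass correlation were not tested in this way. The check of calf labels was repeated on genes steady within calves after its first form had been seen. Python 3.11.15 was used for the rest.

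The genes and lists were chosen with earlier results of these data known. Named were the 5 genes in every comparison, the 2 other pathway genes with the smallest unadjusted p in a comparison (given for 4 comparisons) and, for 4 of the 5, the genes most like it over the libraries, given by their correlation; values of FOS in control calves on d 7 were added after they were seen. Likeness of other genes to ADCY8 is not reported here. Symbols came from identifier pairs in the study's supplementary tables, which named 643 genes of the table and 15 of the 85 pathway genes looked for. Of the cell type markers, 1 of 4 for eosinophils, 1 of 6 for platelets and 3 of 6 for erythroid cells were identified, too few to use.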

Additional observations from a re-analysis of the deposited data

Results flagged for a closer look

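Of 40 groups of 6 libraries (5 genes, 8 groups), 3 had a sample far from the others. The nominal rate by chance is about 1 group in 20, which was not checked for low counts such as these. ADRB3 in weaned calf 1809 on d 7 was at 100.2 CPM (319 counts), and the next weaned calf was at 11.8 CPM. GLP1R in control calf 1803 was at 2.54 CPM on d 0, with the next calf at 0.599 CPM, and at 4.84 CPM on d 1, with the next calf at 1.05 CPM. The GLP1R values are 9 and 17 counts of the same calf, so these flags are not independent of each other. The causes were not tested.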

How the results depend on the processing

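None of the 5 genes was called in any of the 14 comparisons under any alternative, with the exception of edgeR's exact test with a common dispersion, which called 1 gene, ADRB3, between treatments on d 1 and on d 2 and in weaned calves on d 2. The cause was not tested. The replicate block (calf) changed no call. It turned the ADRB3 change in weaned calves on d 7 to −0.70, and the interactions without the replicate block were 0.087 for PDE4C on d 1, and 0.41 for ADRB3 and 0.068 for PDE4C on d 7. With flowcell as a block, ADRB3 between treatments was −0.26 on d 0 and −0.85 on d 7, and GLP1R 0.90 on d 1. Without calves 1758 and 1770, ADRB1 in weaned calves on d 7 was 0.0073, and the d 7 interactions were 0.27 for ADRB3 and 0.37 for PDE4C.

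Leaving out each calf in turn changed the sign of 16 of the 70 log2 changes, none of them called. Between treatments these were ADRB1 (−0.25 to 0.13) and ADRB3 (−0.048 to 0.52) on d 0, GLP1R on d 1 (−0.55 to 1.13) and ADRB3 on d 7 (−0.82 to 1.18). In weaned calves they were GLP1R on d 1 (−0.096 to 0.42), PDE4C on d 2 (−0.16 to 0.33) and ADRB3 on d 7 (−1.51 to 0.75). In control calves they were ADRB1 (−0.040 to 0.25), PDE4C (−0.31 to 0.0085) and ADCY8 (−0.28 to 0.11) on d 1, and ADRB3 (−0.72 to 0.057) and GLP1R (−0.38 to 1.17) on d 7. Among interactions they were PDE4C on d 1 (−0.36 to 0.055), ADCY8 on d 2 (−0.22 to 0.39), and ADRB3 (−1.06 to 0.16) and PDE4C (−0.30 to 0.33) on d 7. Low counts limit GLP1R most and ADRB3 least. The p-values rest on 6 calves a group, taken as independent although calves of a treatment shared pens.

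Counts over all genes depended more on the test. The 515 genes called in control calves on d 7 were 1 with all 48 libraries in 1 fit, 0 without calf 1755, 1759 or 1763, 790 without calf 1802 and 1086 without calf 1803. DESeq2 called 28 between treatments on d 7, 1 in weaned calves on d 1 and on d 7, 4 and 950 in the interactions of d 1 and d 7 and 2 in the summed counts, where edgeR called 0. Without the filter on low counts the d 7 interaction had 625. With a common dispersion, edgeR's exact test called 18 to 865 genes in 8 comparisons in which the F-test called 0, and with tagwise dispersions at most 18 where the F-test called 0. Without weaned calf 1809, 1136 genes were called between treatments on d 7. The calf block called 2 genes in weaned calves on d 1.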
